A study of Homo sapiens with 22 samples.

Results

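Untreated PC3 cells were profiled for FOXA2 binding by chromatin immunoprecipitation and sequencing (ChIP-seq) in 3 samples of this series, and the 3 deposited lists of enriched regions were compared. The first list, called the Millipore list here, is the vehicle sample labelled with an anti-FOXA2 antibody from Millipore, and it held 24038 regions. The other lists, later list 1 with 77822 regions and later list 2 with 62714, come from vehicle PC3 samples whose labels name no antibody. Regions that overlapped by 1 base or more were joined, which gave 84776 separate places in the genome. Each place was then assigned to a class by the lists that held it. Of these places, 21654 (25.5%) were in all 3 lists, 35276 (41.6%) were in both later lists and not in the Millipore list, and 25543 (30.1%) were in a single later list. A further 1690 places (1.99%) were in the Millipore list alone.

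The series holds 22 such lists with 871377 regions in all, from the prostate cancer lines PC3, NCI-H660 and LNCaP. PC3 is a line grown from a bone metastasis of prostate cancer. The 3 samples described here were grown in the same serum-containing medium and are all labelled as vehicle, with no siRNA or transgene named. For the Millipore sample the labels give treatment for 4 h, and for the later samples they give no treatment protocol. The labels give 1 library kit for the Millipore sample and 2 possible kits for the later samples, the deposited names of the later lists carry different antibody-like codes, and the methods of the study name another supplier of ChIP-grade FOXA2 antibody. The antibody, the kit, the treatment and the sequencing depth therefore cannot be told apart in any difference between the Millipore list and the later lists. The study itself reports that it tried more than 1 FOXA2 antibody in its binding analyses and that the results were similar. The labels do not call the later samples replicates, and no list has a repeat with the same antibody label in the same cells. Ranges in parentheses after a percentage are 95% Wilson intervals, and those after a difference are Newcombe intervals unless score bins are named. They cover counting error over places only, and no p-value is given.

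Companion PC3 lists described accessible chromatin by ATAC-seq (210960 regions), the acetylated histone H3K27ac that marks active enhancers and promoters (90468 regions) and the AP-1 subunit JUN in cells with control siRNA (23890 regions). The H3K27ac sample is labelled as vehicle, but its deposited name points to control siRNA, so which of these cells it came from is uncertain. The ATAC list was checked against markers of the line. It had a region within 1 kb of 8 of 10 annotated starts of KRT8, 3 of 3 of KRT18, 4 of 4 of VIM and 11 of 24 of CD44, and of none of the 7 starts of the luminal gene KLK3 or the 2 of the neuroendocrine gene CHGA. The neuroendocrine gene SYP went against the marker list, with a region at 3 of its 3 starts.

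FOXA2 is a forkhead transcription factor and a pioneer factor: it can bind its sites on nucleosomes in closed chromatin and help to open them for other factors. It is known for its role in endoderm development, and it is also found in some prostate cancers. AP-1 is a family of dimers of JUN and FOS proteins that bind open enhancers at the word TGACTCA. In such data a factor's own motif near the region centre, the openness of the chromatin and the histone marks show what kind of place an antibody recovered.

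The highest-scoring places in all 3 lists and in both later lists alone are shown first, because the letters at their centres carry the motif that the classes share. Each run is 201 bases of the plus strand of hg19 around the region centre. Capitals mark the 8 forkhead words (T, then A or G, then TTT, then A or G, then C or T, on either strand) and the AP-1 word TGACTCA. Places overlapped in 17 or more of the 22 lists were passed over. The 3 places in all 3 lists lie in an intron of KAT6B at chr10:76635762-76635962, in intergenic DNA near SPINK1 at chr5:147214993-147215193, and in intergenic DNA whose nearest gene is RPS24 at chr10:80218830-80219030.
KAT6B intron: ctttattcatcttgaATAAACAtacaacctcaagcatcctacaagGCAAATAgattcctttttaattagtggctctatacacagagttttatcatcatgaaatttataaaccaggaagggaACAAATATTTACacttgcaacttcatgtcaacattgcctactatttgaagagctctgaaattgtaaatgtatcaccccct
near SPINK1: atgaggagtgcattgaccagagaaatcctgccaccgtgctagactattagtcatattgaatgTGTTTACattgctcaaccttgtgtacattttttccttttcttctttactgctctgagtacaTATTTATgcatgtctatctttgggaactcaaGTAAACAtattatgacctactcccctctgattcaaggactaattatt
nearest to RPS24: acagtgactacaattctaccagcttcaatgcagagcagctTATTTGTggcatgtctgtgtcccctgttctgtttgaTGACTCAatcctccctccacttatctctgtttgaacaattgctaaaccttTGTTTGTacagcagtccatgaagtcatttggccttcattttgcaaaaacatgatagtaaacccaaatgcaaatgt
They held 4, 3 and 2 forkhead words, and the last held an AP-1 word 21 bases before its centre. All 3 overlapped ATAC, H3K27ac and JUN regions.

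The 3 highest-scoring places that were in both later lists alone lie in intergenic DNA with SI as the nearest gene at chr3:163425549-163425749, in intergenic DNA near ATP6V1G3 at chr1:198461709-198461909, and in an intron of CEP126 at chr11:101791829-101792029.
nearest to SI: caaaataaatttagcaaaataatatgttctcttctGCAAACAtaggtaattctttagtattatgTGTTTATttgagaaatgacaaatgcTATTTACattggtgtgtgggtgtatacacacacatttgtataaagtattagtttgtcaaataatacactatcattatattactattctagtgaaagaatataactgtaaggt
near ATP6V1G3: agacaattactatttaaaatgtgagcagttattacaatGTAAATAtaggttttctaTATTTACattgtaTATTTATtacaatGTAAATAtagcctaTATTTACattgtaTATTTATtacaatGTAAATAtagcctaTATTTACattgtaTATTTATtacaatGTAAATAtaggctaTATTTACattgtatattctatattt
CEP126 intron: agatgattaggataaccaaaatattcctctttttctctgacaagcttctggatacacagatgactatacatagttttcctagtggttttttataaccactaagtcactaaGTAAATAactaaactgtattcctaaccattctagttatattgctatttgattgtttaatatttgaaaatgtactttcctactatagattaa
They held 3, 11 and 1 forkhead words and no AP-1 word. In the ATP6V1G3 place the words recur at nearly even steps, 18.4% of the bases were G or C, and the central 31 bases occurred 2 times in the genome. All 3 overlapped an ATAC region, but none overlapped an H3K27ac or a JUN region, and none was in any list of the series beyond both later lists and ATAC. Their scores in later list 1 were 2845, 2819 and 2040, and in later list 2 they were 2450, 2126 and 1201, so they were among the highest-scoring regions of both later lists and absent from the Millipore list.

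The lists were nested rather than disjoint. Of the Millipore regions, 92.5% (92.2 to 92.9) overlapped later list 1, 90.8% (90.4 to 91.1) overlapped later list 2, and 90.4% (90.0 to 90.7) overlapped both. In the other direction, 28.6% of the regions of later list 1 and 34.8% of those of later list 2 overlapped a Millipore region. Between the later lists, 91.3% (91.0 to 91.5) of list 2 was in list 1 and 73.4% (73.1 to 73.7) of list 1 was in list 2. The longer list therefore held most of the shorter one in each pair. Centres of overlapping regions were close: the median offset was 29 bases between the Millipore list and later list 1, 28 bases with later list 2, and 29 bases between the later lists.

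**Figure D1:**
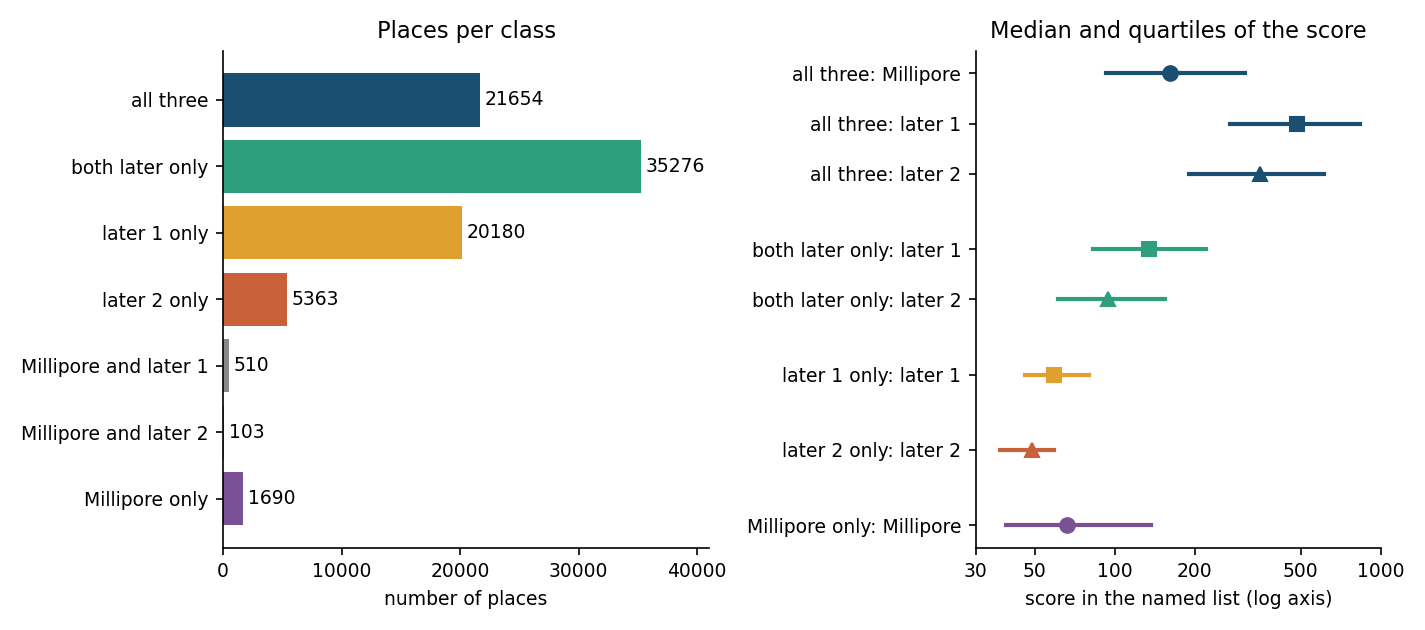
The left panel shows the number of places (horizontal axis) in each of the 7 classes, from 35276 in both later lists alone down to 103 in the Millipore list and later list 2. The right panel shows, on a log axis, the median (symbol) and quartiles (line) of the score in each list that holds the class, and the places in all 3 lists have the highest scores in both later lists.

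Each deposited region carries a score, taken here as a rank of regions within a list because its definition is not given in the sources used here, and its range differed between the 3 lists. It reached 125774 in the Millipore list, 3934 in later list 1 and 3510 in later list 2, while the medians were 150, 131 and 123. Outside places that recur in 17 or more lists, the highest Millipore score was 12604. Among the 21654 places in all 3 lists, the rank correlation of scores across places was 0.95 between the later lists, 0.69 between the Millipore list and later list 1, and 0.70 between the Millipore list and later list 2. These places share 1 genome and cell line and are not independent, so the coefficients are a description.

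Membership followed the score. Places in all 3 lists had a median score of 486 (quartiles 270 to 833) in later list 1, places in both later lists alone had 134 (83 to 220), and places in later list 1 alone had 59 (46 to 80). The same order held in later list 2, with medians of 350, 94 and 49. When places of later list 1 were divided into 10 bins of equal size by score, the share also found in the Millipore list rose from 2.0% in the lowest bin to 94.8% (94.2 to 95.2) in the highest. The share found in later list 2 rose from 23.8% to 100%. It had reached 92.2% in the sixth bin, where the share in the Millipore list was 17.4%.

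Over all places together, forkhead words were almost as frequent in places of both later lists alone as in places of all 3 lists. A word lay within 100 bases of the centre in 79.1% (78.6 to 79.7) of places in all 3 lists and in 78.4% (78.0 to 78.8) of places in both later lists alone, a difference of 0.72 points (0.027 to 1.41). Windows 2 kb away held a word in 35.8% and 35.1%. In places of later list 1 alone the share was 73.8% (73.2 to 74.4), and in places of later list 2 alone it was 68.6% (67.4 to 69.9). In places of the Millipore list alone it was 41.8% (39.4 to 44.1), against 34.5% in windows 2 kb away. Of ATAC regions without any FOXA2 region, 19.8% held a forkhead word. The later lists thus held forkhead words at more than the nearby level in every class, and the Millipore list alone held them only slightly above it.

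The single words differed in direction between places in all 3 lists and places in both later lists alone. TATTTAT was in 15.4% and 16.8% of them, TATTTGT in 13.4% and 14.1%, and TGTTTGT in 13.9% and 14.2%. The other words were less frequent in both later lists alone. TGTTTGC, for example, was in 12.8% and 11.1%, and in 8.82% of places in a single later list. TGTTTAC, the word furthest above its nearby share, was found in 25.7% of places in all 3 lists, 24.1% of places in both later lists alone and 24.5% of places in a single later list, which was 8.10, 7.21 and 7.75 times its share 2 kb away. TATTTAC followed with 4.27, 4.14 and 3.85 times. The word least above it, TATTTAT, was 1.43, 1.58 and 1.43 times its nearby share. In places of the Millipore list alone, TGTTTAC was 1.85 times its nearby share and TATTTAT was 0.55 times.

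AP-1 words fell off more steeply than forkhead words from places in all 3 lists to places in both later lists alone. TGACTCA lay within 100 bases of the centre in 26.3% (25.7 to 26.9) of places in all 3 lists, 21.2% (20.8 to 21.6) of places in both later lists alone, and 16.9% (16.4 to 17.3) of places in a single later list. The first difference was 5.07 points (4.35 to 5.80) and the second was 4.36 points (3.73 to 4.99). Over the second step forkhead words fell by 5.68 points (4.99 to 6.38). Windows 2 kb away held the word in 2.97%, 3.20% and 2.92%. Of ATAC regions without FOXA2, 13.8% held it. In the Millipore list alone the share was 7.57% (6.41 to 8.93). Both a forkhead and an AP-1 word lay in the same window in 19.5% of places in all 3 lists, in 14.6% of places in both later lists alone and in 9.89% of places in a single later list.

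**Figure D2:**
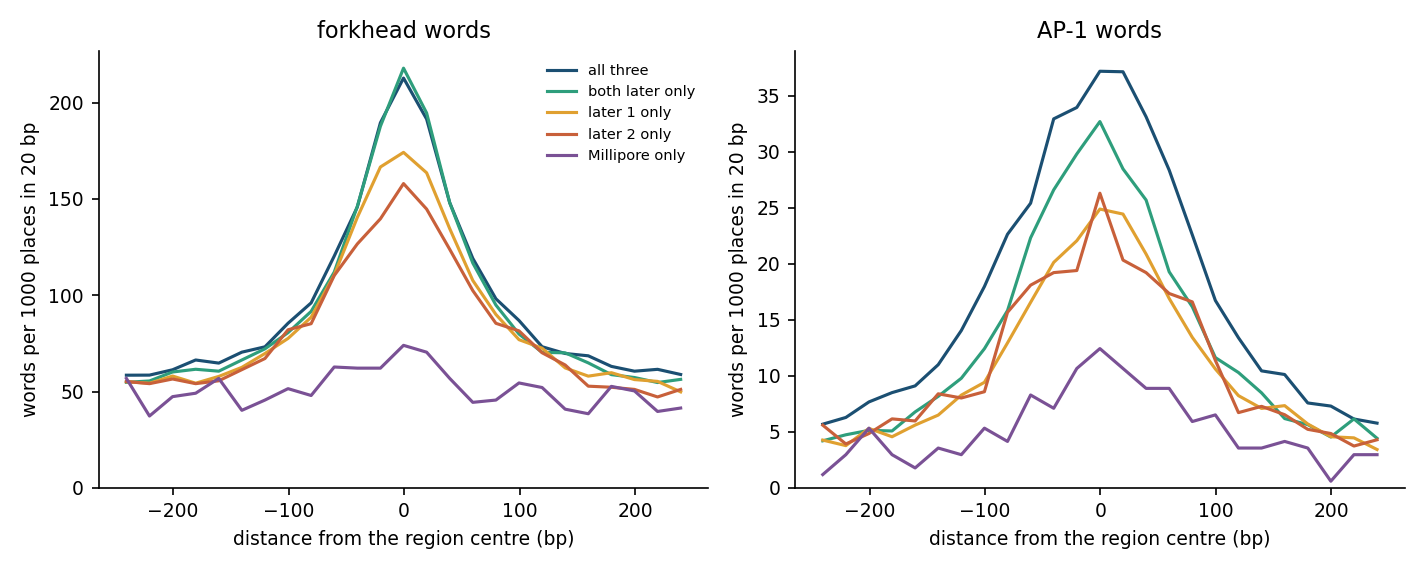
The number of forkhead words (left) and AP-1 words (right) per 1000 places in bins of 20 bases (vertical axes) is plotted against the distance from the region centre in bases for 5 classes. Forkhead words peak at the centre at nearly the same height in places of all 3 lists and of both later lists alone. AP-1 words peak highest in all 3 lists, then in both later lists alone, then in the single later lists. Places of the Millipore list alone show the lowest peaks.

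Words for other factors differed less than the AP-1 word between places in all 3 lists and places in both later lists alone. Several of them differed by more than the forkhead words did. The TEAD word ACATTCC, bound by partners of YAP, was in 5.04% of places in all 3 lists and 5.13% of places in both later lists alone. The difference was -0.085 points (-0.45 to 0.29), so it lay within counting error. The GATA word AGATAA was in 15.1% and 16.1%, the RUNX word TGTGGTT in 6.65% and 6.41%, and the C/EBP word TTGCNNAA in 16.1% and 14.7%. The words of promoters and insulators were rare and most frequent in later list 2 alone. The SP/KLF word GGGCGGG was in 1.14% of places in all 3 lists and 1.49% of places in both later lists alone. In later list 1 alone it was in 1.49%, and in later list 2 alone in 2.65% (1.31% nearby). The CTCF core AGGGGGC was in 1.09%, 1.30%, 1.73% and 2.09% of these classes. Its nearby share was 1.41% in the first and 1.70% in the last.

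The chromatin of the classes differed far more than their forkhead words. An ATAC region overlapped 91.9% (91.6 to 92.3) of places in all 3 lists, 59.4% (58.9 to 59.9) of places in both later lists alone and 42.3% (41.7 to 42.9) of places in a single later list. The same intervals shifted by 2 kb overlapped one in 8.53%, 6.67% and 5.81%. The gap between all 3 lists and both later lists alone was 32.6 points (31.9 to 33.2), and that between both later lists and a single later list was 17.1 points (16.3 to 17.9). Where a place was accessible, the median score of its ATAC region was 636 in all 3 lists, 300 in both later lists alone and 295 in a single later list, against 112 over all ATAC regions. The share of these in the highest score decile of ATAC regions was 27.3%, 14.6% and 17%.

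Active marks followed the same order. H3K27ac overlapped 69.0% (68.3 to 69.6) of places in all 3 lists, 35.5% (35.0 to 36.0) of places in both later lists alone and 24.3% (23.8 to 24.8) of places in a single later list. JUN in control siRNA cells overlapped 45.0% (44.3 to 45.7), 12.8% (12.4 to 13.1) and 7.86% (7.54 to 8.20). The AP-1 subunit FOSL1 in control siRNA cells overlapped 4.79%, 1.03% and 0.77%. The differences between the first 2 classes were 33.5 points (32.7 to 34.2) for H3K27ac, 32.2 points (31.5 to 33.0) for JUN and 3.76 points (3.46 to 4.07) for FOSL1. Places in all 3 lists were wider, with a median of 543 bases against 403 in both later lists alone. When only 100 bases on either side of the centre were tested, the H3K27ac difference was 19.1 points and the JUN difference was 31.7.

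**Figure D3:**
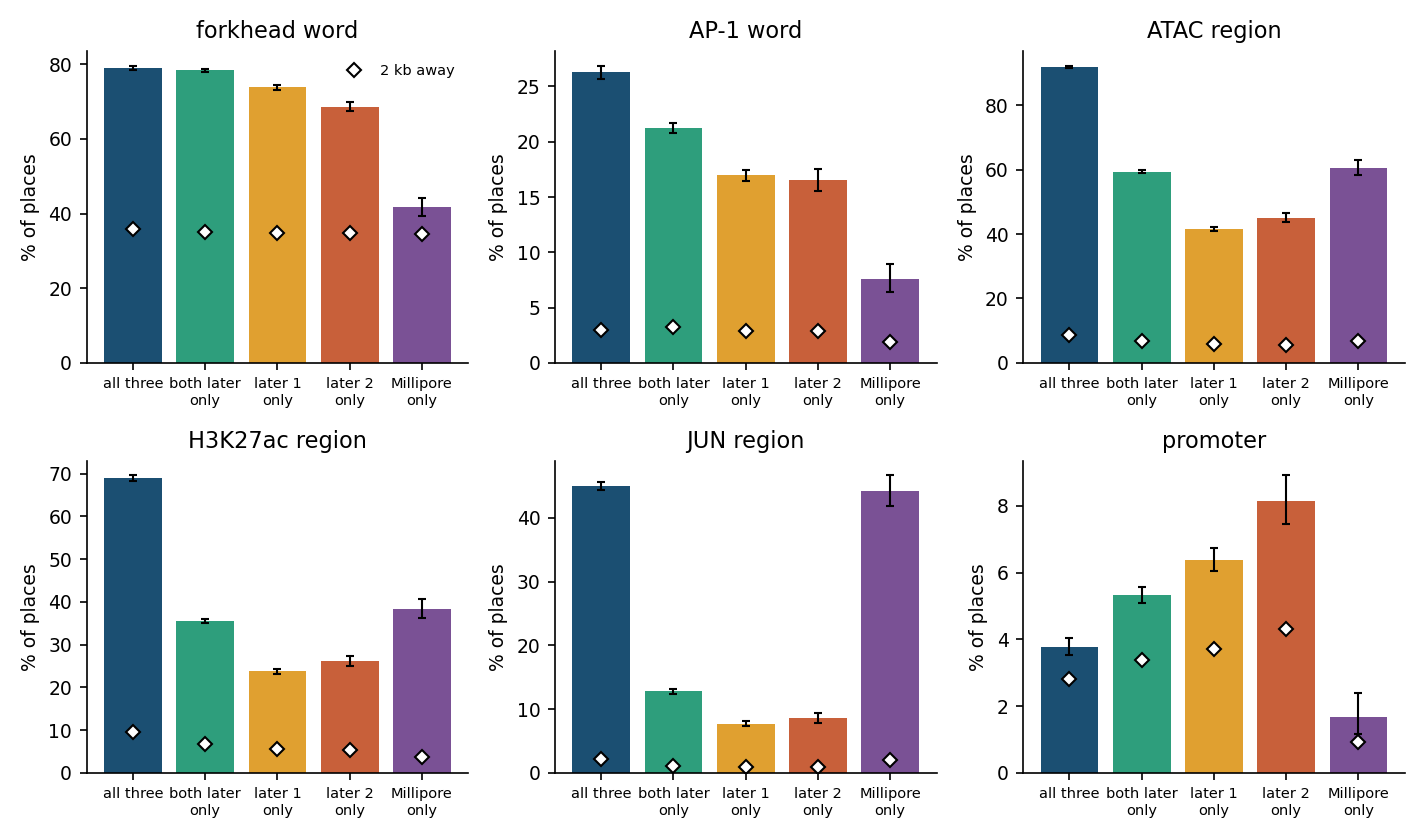
Bars show the percentage of places of 5 classes with each of 6 features, with 95% Wilson intervals, and diamonds show the same measure 2 kb to either side. Forkhead words are at 79.1% and 78.4% in the first 2 classes, whereas ATAC, H3K27ac and JUN overlap drop between them, and the share at promoters rises from the first class to places in later list 2 alone.

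Split by accessibility, the 2 motifs differed in direction. Outside ATAC regions, forkhead words were in 89.6% (88.1 to 90.9) of the 1747 places in all 3 lists, 88.2% (87.6 to 88.7) of the 14330 places in both later lists alone and 83.6% (83.0 to 84.2) of the 14738 places in a single later list. Within ATAC regions the shares were lower, at 78.2%, 71.7% and 57.8%. Inaccessible places of the later lists were therefore at least as rich in the FOXA2 motif as accessible ones. They were also richer in A and T, with a median GC content of 33.8% in both later lists alone, against 38.8% in accessible places of that class. Windows 2 kb away held a word in 36.7% and 34.0% of these 2 groups. Between all 3 lists and both later lists alone, the forkhead difference was 6.49 points (5.65 to 7.33) within ATAC regions. Outside them it was 1.40 points (-0.20 to 2.85). For TGTTTAC alone the differences were 6.80 points (6.01 to 7.59) and 5.40 points (3.01 to 7.83), beside 1.54 over all places.

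AP-1 words were instead more frequent in accessible places. Among accessible places TGACTCA was in 27.2% of those in all 3 lists, 26.0% of those in both later lists alone and 24.6% of those in a single later list. The first difference shrank to 1.14 points (0.28 to 2.0). JUN overlapped 48.7% (48.1 to 49.4), 21.2% (20.7 to 21.8) and 18.1% (17.4 to 18.8) of the same accessible places, a difference of 27.5 points (26.6 to 28.4) between the first 2 classes. H3K27ac overlapped 73.2%, 53.1% and 48.8% of them. Outside ATAC regions AP-1 words were in 16.1%, 14.2% and 11.2%, and JUN was at 2.35% (1.73 to 3.17), 0.46% (0.36 to 0.59) and 0.37% (0.29 to 0.49). Among accessible places, then, these classes were close in AP-1 words, while places in all 3 lists stood apart in JUN overlap. Between both later lists alone and a single later list, JUN differed by 3.13 points (2.21 to 4.04). The ATAC scores of the accessible places (medians 636, 300 and 295) were not matched here.

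Since higher-scoring regions are more often in the Millipore list, the classes were also compared at equal score. Within the 10 bins of the later list 1 score, and with the weights of the places in both later lists alone, the ATAC difference was 29.7 points (28.6 to 30.8), the H3K27ac difference 26.2 points (24.7 to 27.7) and the JUN difference 27.8 points (26.4 to 29.3). The AP-1 word difference was 5.01 points (3.68 to 6.34), but at equal score it was 1.91 points (0.45 to 3.38) among accessible places and -1.93 points (-4.62 to 0.76) outside ATAC regions. The forkhead difference changed sign: at equal score, places in all 3 lists held forkhead words 9.74 points less often (-11.2 to -8.28) than places in both later lists alone. Among accessible places the forkhead comparison gave -4.75 points (-6.32 to -3.18), and outside ATAC regions -3.8 points (-7.20 to -0.40). With bins of the later list 2 score, chosen after the data were seen, the forkhead difference was -8.22 points.

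**Figure D4:**
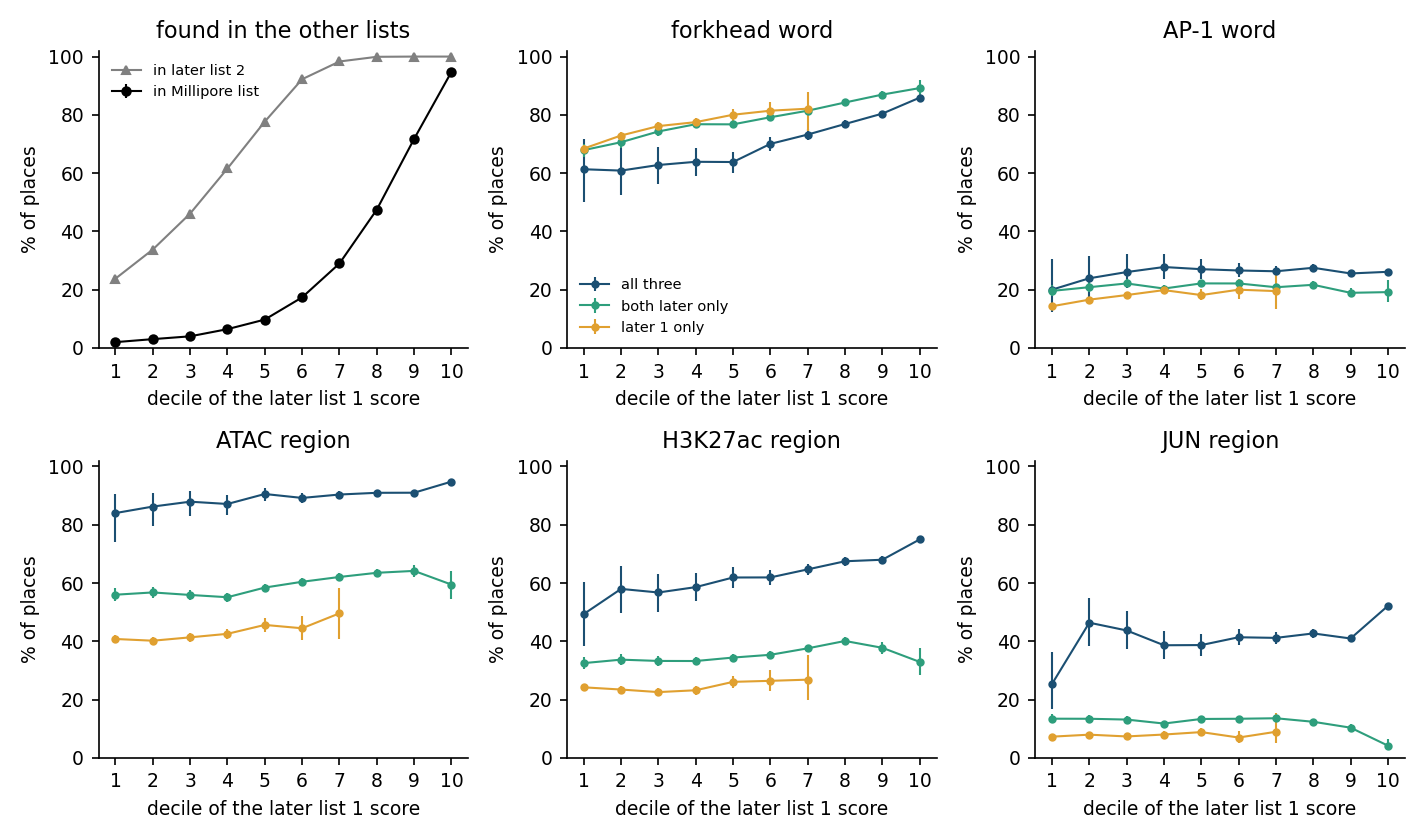
The first panel plots the percentage of places of later list 1 that are also in the other lists against the decile of their score, and the other 5 panels plot the percentage with each feature for places in all 3 lists, in both later lists alone and in later list 1 alone, with 95% Wilson intervals and bins of at least 20 places. At every score the places in all 3 lists lie above the others for ATAC, H3K27ac and JUN, and below them for forkhead words.

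The gaps in ATAC, H3K27ac and JUN overlap were widest in the highest score decile of later list 1. The forkhead gap was narrowest there. This decile held 7355 places in all 3 lists and 407 places in both later lists alone. Their median scores in later list 1 were 1031 and 805, so scores still differed within the bin. Forkhead words were in 85.9% (85.1 to 86.7) and 89.2% (85.8 to 91.8), and TGTTTAC alone was in 32.6% and 32.2%. ATAC regions overlapped 94.8% of the former and 59.5% (54.6 to 64.1) of the latter. H3K27ac overlapped 75% and 32.9% (28.5 to 37.6). JUN overlapped 52.2% and 4.18% (2.62 to 6.59), the latter being 17 of 407 places. Their median GC content was 36.3% and 30.3%. The highest-decile places missing from the Millipore list thus held forkhead words as often as the shared ones, with less H3K27ac and little JUN overlap.

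The other PC3 FOXA2 lists with the Millipore label held few of the places of the later lists alone. The classes are themselves defined by a PC3 FOXA2 list with that label, so this contrast is not independent of the classing. FOXA2 regions of cells treated for 4 h with the LSD1 inhibitor ORY-1001 at 10 µM overlapped 36.8% of places in all 3 lists and 2.76% of places in both later lists alone. FOXA2 regions of cells treated for 4 h with C12 at 0.5 µM overlapped 29.5% and 0.68%. For intervals shifted by 2 kb the shares were 1.18% and 0.60% with ORY-1001, and 0.82% and 0.36% with C12. Of the 407 highest-decile places in both later lists alone, the ORY-1001 list held 5.65% (3.79 to 8.34) and the C12 list 1.97% (1.00 to 3.83), against 54.9% and 52.1% of the highest-decile places in all 3 lists. Drug treatment and antibody label cannot be told apart in these 4 values.

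In the neuroendocrine line NCI-H660, whose FOXA2 lists also carry the Millipore label, FOXA2 regions of vehicle cells overlapped 9.14% of places in all 3 lists, 3.60% of places in both later lists alone and 2.21% of places in a single later list. Accessible chromatin of NCI-H660 overlapped 23%, 17.7% and 16.5%. JUN regions of PC3 cells with FOXA2 siRNA overlapped 6.41%, 1.43% and 0.87%. The order did not hold in every list: JUN regions of LNCaP cells that express FOXA2 overlapped 1.05%, 1.00% and 1.25%, JUN regions of NCI-H660 cells with FOXA2 siRNA 5.02%, 3.88% and 3.96%, and FOXA2 regions of the FOXA2-expressing LNCaP cells 1.29%, 0.21% and 0.28%.

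Places in a single later list had low scores, and the classes of the 2 later lists were close in most features. The 20180 places of later list 1 alone and the 5363 places of later list 2 alone had AP-1 words in 16.9% and 16.5%, a difference of 0.43 points (-0.71 to 1.53). Forkhead words were 5.17 points (3.8 to 6.56) more frequent in the places of list 1. ATAC overlapped 41.6% (40.9 to 42.2) and 45.1% (43.8 to 46.4), H3K27ac 23.8% and 26.2%, and JUN 7.69% and 8.52%. Promoters made up 6.38% (6.05 to 6.72) and 8.15% (7.45 to 8.91).

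The highest-scoring places of these classes had modest scores. In later list 1 alone they lay in an intron of FGF9 (score 292), in intergenic DNA with HHIPL2 as the nearest gene (285) and in an intron of PDLIM5 (263), and each held 1 or 2 forkhead words. In later list 2 alone they lay near ANKRD30BL (220) and in introns of RGPD3 (164) and PCDH7 (151). The first 2 of these held no forkhead word, and the 31 bases at the centre of the ANKRD30BL place occurred 3 times in the genome.

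The 1690 places in the Millipore list alone differed from the larger classes in several features. Besides the low share of forkhead words, they were often in some other lists of the series. Of the FOXA2 lists, that of PC3 cells with ORY-1001 held 46.3% of them and that with C12 39.0%. The FOXA2 list of LNCaP cells that express FOXA2 held 49.2%, and that of NCI-H660 vehicle cells 39.0%. With control siRNA, the PC3 FOSL1 list held 39.5% and the LNCaP JUN list 34.1%. In the same order, these lists overlapped 36.8%, 29.5%, 1.29%, 9.14%, 4.79% and 3.01% of places in all 3 lists. The share was 36.9% in the JUN list of LNCaP cells with FOXA1 siRNA. It was lower, at 8.05%, in the PC3 FOSL1 list with FOXA2 siRNA. In the JUN lists of LNCaP cells that express FOXA2 or its K265R mutant it was 5.92% and 11.5%. Of these 1690 places, 154 (9.11%) were in 17 or more of the 22 lists, against 1.02% of places in all 3 lists and 1 of the 35276 places in both later lists alone. Of the 103 places in the Millipore list and later list 2, 57.3% held a forkhead word and 6.80% were in 17 or more lists. The FOXA2 list of FOXA2-expressing LNCaP cells overlapped 26.2% of them. The 510 places in the Millipore list and later list 1 gave 70.6%, 2.16% and 5.10%. Of the 1690 places, ATAC overlapped 60.6% and H3K27ac 38.4%, near the 59.4% and 35.5% of both later lists alone. A JUN region overlapped 44.3%, beside 45.0% in all 3 lists, also where no ATAC region did (30.6%).

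Their sequences were also less unique. The central 31 bases occurred more than once in the reference genome in 45.3% (42.9 to 47.7) of them, against 5.57% (5.28 to 5.89) of places in all 3 lists, 5.20% (4.97 to 5.43) of places in both later lists alone and 7.17% (6.86 to 7.5) of places in a single later list. They occurred 100 times or more in 21.5%, 0.82%, 0.94% and 1.82%. Of the 103 places in the Millipore list and later list 2, 20.4% (13.7 to 29.2) had central bases that occurred more than once. How reads from such repeated sequence were treated in each list is not given in the sources used here, and its part in the result was not tested.

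Among the places in the Millipore list alone, the most recurrent held the fewest motif words. The 549 places found in 10 or more of the 19 other lists held forkhead words in 30.6% (26.9 to 34.6) and AP-1 words in 0.91%, with a median Millipore score of 167. The 590 places found in 1 to 4 other lists held them in 51.4% (47.3 to 55.4) and 16.6% (13.8 to 19.8), with a median score of 56.5. The 262 places found in no other list held forkhead words in 48.5% (42.5 to 54.5), and none could overlap an ATAC region by construction. Their median score was 28.

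**Figure D5:**
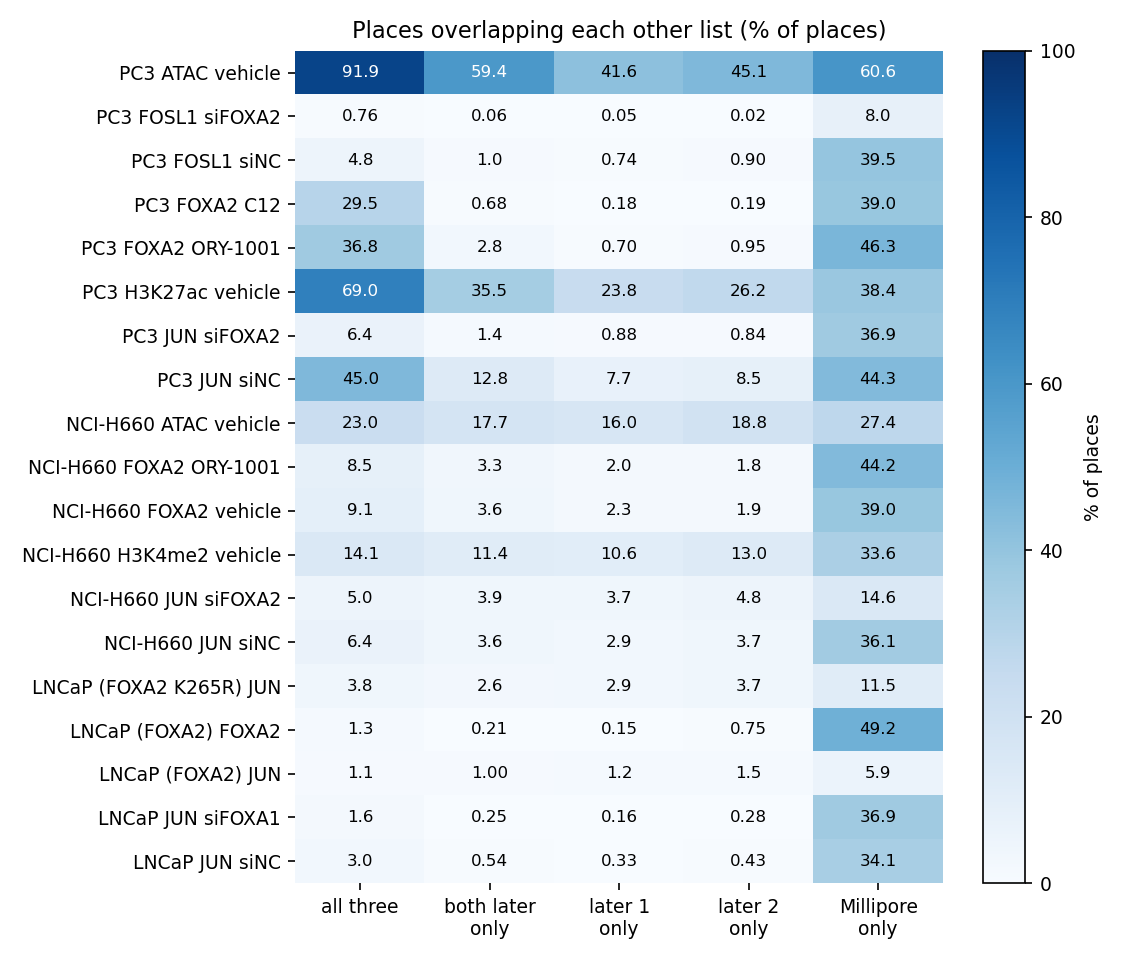
Each cell gives the percentage of places of a class (columns) that overlap each of the 19 other lists of the series (rows, by cell line), with darker blue for higher percentages. Of the 5 classes drawn, places in the Millipore list alone have the highest percentages in the LNCaP and NCI-H660 lists, 49.2% in the FOXA2 list of LNCaP cells, and places of the later lists alone are below 5% in most of them.

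Most places of every class lay far from promoters, as is usual for FOXA factors. A protein-coding start lay within 1 kb of the centre in 3.77% (3.53 to 4.04) of places in all 3 lists, 5.33% (5.10 to 5.57) of places in both later lists alone and 6.75% (6.45 to 7.06) of places in a single later list, and in 10.9% of ATAC regions without FOXA2. The difference between the first 2 classes was -1.55 points (-1.90 to -1.21). Introns held 44.7%, 44% and 42.2%, and intergenic DNA 48.7%, 47.7% and 47.9%. Coding exons held 0.49%, 0.49% and 0.61%. The promoter excess of the later lists lay in accessible places: there the promoter share was 3.83%, 7.12% and 11.5%, and outside ATAC regions it was 3.09%, 2.71% and 3.26%.

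Places of the later lists lay somewhat closer to places in all 3 lists than accessible chromatin without FOXA2 did. The median distance was 31.9 kb for places in both later lists alone, 35.0 kb for later list 1 alone and 37.8 kb for later list 2 alone. It was 55 kb for the 156858 ATAC regions without FOXA2 and 62.9 kb for places in the Millipore list alone. Within 10 kb of a place in all 3 lists lay 21.1% of places in both later lists alone and 14.1% of ATAC regions without FOXA2. By chromosome, 13 held 153 places of all 3 lists and 327 of both later lists alone for every 1000 ATAC regions, and the gene-dense chromosome 19 held 31.4 and 67.8.

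ADGRL3, an adhesion receptor, was nearest to 49 places in all 3 lists, followed by CTNNA3 (44), CADM2 (41), CSMD3 (40) and TRPS1 (39). For both later lists alone the leading genes were the protocadherin PCDH7 (72), the cadherin CDH9 (71), the adhesion molecule CADM2 (66), the ephrin EFNA5 (61) and the protocadherin PCDH9 (61). CSMD3 (50), CADM2 (48), CTNNA3 (45), PCDH15 (43) and ADGRL3 (38) led later list 1 alone, and CADM2 (10), ADGRL3 (9), SORCS1 (9), TRPS1 (9) and LRRC4C (8, tied with others) led later list 2 alone. The classes thus shared several genes. The counts were not set against a background, such as the length of DNA nearest to each gene. Of the places of any class nearest to PCDH7, 12 of 142 lay inside the gene, and for CDH9 14 of 141. For CADM2 it was 64 of 171, and for CTNNA3 85 of 151. In the Millipore list alone the leading genes were CWH43 (20), RP11-685N3.1 (18), ZNF33B (13), SPIN4 (11) and ZNF722 (10), with at most 1 place of any class inside the gene.

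Gene lists were read against all 20136 protein-coding genes. A place in all 3 lists lay within 50 kb of 51.5% of all genes, a place in both later lists alone of 72.5%, a place in a single later list of 66.0% and a place in the Millipore list alone of 5.51%. Of 106 listed genes in 8 groups, 70 had a place in all 3 lists, 85 a place in both later lists alone, 81 a place in a single later list and 2 a place in the Millipore list alone. Housekeeping genes, the comparison group, had 11, 12 and 13 of 14. The numbers of places per gene given below cover the gene body and 50 kb on either side. They were not adjusted for gene length.

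Among FOXA and endoderm factors, 8 of 13 had a place in all 3 lists and 8 of 13 a place in both later lists alone. FOXA1 had 5 places of each kind, FOXA2 itself had 4 in all 3 lists and 1 in both later lists alone, and HNF4G, a nuclear receptor of gut epithelium, had 7 of each. GATA6 had 1 and 5. Of AP-1 subunits, 9 of 14 had a place in all 3 lists and 12 of 14 in both later lists alone: JUN had 2 and 6, and the small partner MAFK had 5 and 2. Basal and stem-like genes had 11 of 16 in both classes. TP63, the master factor of basal epithelium, had 9 and 8, and LAMA3, a basement membrane laminin, had 5 and 9.

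The mesenchymal and YAP groups had places of both classes near most genes, and so did the housekeeping group (11 and 12 of 14). Over all genes the shares were 51.5% and 72.5%. Of 12 mesenchymal genes, 10 had a place in all 3 lists and 12 in both later lists alone, with TGFBR2 at 8 and 2 places and CDH2 at 3 and 10. Of 13 YAP and TEAD genes the counts were 10 and 11, with TEAD1 at 9 and 12 and YAP1 at 7 and 6. Of 12 luminal genes they were 8 and 11. The HOXB13 gene, a prostate lineage factor, had 4 and 3. Neuroendocrine genes were the group with the fewest places in all 3 lists, 3 of 12, and 8 of 12 had a place in both later lists alone. These were single places for NEUROD1, SYP, INSM1, POU3F2 and ENO2, 2 for CHGA and 3 each for CHGB and SCG2. The median number per gene in the group was 0 in all 3 lists and 1 in both later lists alone, beside 1 and 1 over all genes.

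Loci that the study tested or displayed were covered unevenly. Near the parathyroid hormone-like gene PTHLH, 11 places lay within 50 kb, of which 3 were in all 3 lists, 7 in both later lists alone and 1 in later list 1 alone. The highest-scoring, at chr12:28174506-28175341, scored 4139 in the Millipore list, 3216 in later list 1 and 3175 in later list 2, and overlapped ATAC, H3K27ac and JUN regions. Near the PTHLH start, a place in both later lists alone at chr12:28126241-28126625 scored 241 and 139. It held a forkhead word and overlapped no ATAC region. TP63 had 23 places, 9 in all 3 lists and 8 in both later lists alone. A place downstream of TP63 at chr3:189634530-189635139 scored 1460 in later list 1 and 978 in later list 2 without a Millipore region. It held forkhead and AP-1 words and overlapped no ATAC region.

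The remaining loci ranged from mostly shared to wholly absent from the Millipore list. Within 50 kb of CEP55, a cytokinesis factor, 5 of 7 places were in all 3 lists, all of them accessible and overlapped by JUN, but MYOF or FFAR4 was the nearest gene of all 7. INCENP, a subunit of the chromosomal passenger complex, had 5 places and none in the Millipore list; its highest scores were 205 and 129. Of 7 places near the cell cycle kinase gene CDK1, 1 was in all 3 lists, at chr10:62561153-62561885 with scores of 300, 959 and 850. The kinetochore gene NDC80 had 11 places with 2 in all 3 lists, and the lymphangiogenic factor gene CCBE1 had 14 with 4 in all 3 lists. WNT7A, ERCC6L and FOSL1 had 1 place each in all 3 lists, of 4, 3 and 4 places, and the FOSL1 one lay nearest to C11orf68. At WNT7A it lay in an intron at chr3:13882461-13882990 and scored 125, 500 and 467. Across the 10 loci no place was in the Millipore list alone.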

How the data were processed

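Per the labels and the submitters' processing notes, the authors aligned reads to hg19 with BWA 0.7.17-r1188, handled them with SAMtools 1.9 and called regions per sample with MACS2 2.1.4, after FastQC 0.11.9. The deposited files give intervals and a score, whose definition is not given in the sources used here. Read counts were not used here, so the depth is unknown.

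Regions overlapping by 1 base were merged into places, and the strongest region of later list 1, else later list 2, else the Millipore list gave the centre. Words were searched within 100 bases on both strands of the GRCh37 reference, and genes came from GENCODE 44 lifted to GRCh37. Named places were the 3 highest-scoring of each class outside recurrent places and chromosome 8, of which some are not reported here, and named genes were the 5 nearest to the most places, fixed gene lists and loci tested or shown by the study. Members and lists were chosen with earlier results of these data known. With 1 list per antibody label no test was run. Overlap, motif and interval code was tested on simulated data. Python 3.11.15, numpy 2.4.6, pandas 2.3.3, scipy 1.17.1, pysam 0.24.0, matplotlib 3.10.9 and samtools 1.23.1 were used.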

Additional observations from a re-analysis of the deposited data

How the results depend on the processing

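Differences are places in all 3 lists minus places in both later lists alone, in percentage points. The forkhead difference (0.72) changed sign with equal numbers of highest-scoring regions per list (-3.66), within score deciles of later list 1 (-9.74) and of later list 2 (-8.22, chosen after seeing the data). It was 0.24 (-0.48 to 0.96) with a score of at least 50, 1.61 with 50% reciprocal overlap and 1.54 with TGTTTAC alone. The other differences kept their sign in these alternatives, although the promoter interval spanned 0 with equal numbers and the AP-1 difference at equal score was -1.93 (-4.62 to 0.76) outside ATAC regions. With 50% overlap, the AP-1, ATAC, H3K27ac and JUN differences were 5.99, 31.35, 31.78 and 31.20. With equal numbers, ATAC was 28.50, H3K27ac 32.58, JUN 35.62 and promoter -0.32 (-0.94 to 0.25). With a score of at least 50, ATAC was 31.57 and promoter -1.18. Testing 100 bases on either side gave 33.31 for ATAC and 19.13 for H3K27ac. A window of 250 bases gave 7.56 for AP-1, and a promoter of 2500 bases gave -2.09. Within deciles of later list 1, ATAC was 29.73, H3K27ac 26.19, JUN 27.84 and promoter -1.0. Within deciles of later list 2 they were 29.62, 25.28, 26.32 and -1.20. With either later list left out, places in the Millipore list and the kept list were set against places in the kept list alone. The second class then took in places of a single later list and held 40878 or 55602 places, beside 35276 in the main setting. The differences were 2.21 to 2.24 for forkhead, 5.31 to 6.57 for AP-1 and 34.70 to 38.84 for ATAC. They were 34.41 to 37.09 for H3K27ac, 32.71 to 33.69 for JUN and -1.97 to -1.85 for promoter.

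The share of Millipore regions in both later lists (90.35%) was 71.04% with 50% overlap, 66.30% with equal numbers, 91.97% with a score of at least 50, 90.92% without recurrent places, and 90.79% to 92.53% when either later list was left out. At 10 kb, 43 listed genes had a place in all 3 lists, 53 in both later lists alone and 1 in the Millipore list alone. At 100 kb the last count was 4. Apart from the construction of these alternatives, the cause was not tested. No paired analysis was possible because no result comes from a test. Unknown depth limits any reading of a place missing from a list: it was not called there, which does not show that FOXA2 was absent.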
